A study of Gallus gallus with 24 samples.

Results

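The ion and metal transporters of the solute carrier (SLC) superfamily were examined in cultured retinal pigment epithelium (RPE) of the chick embryo. The genes were those with a symbol of the subfamilies SLC4, SLC8, SLC9, SLC11, SLC12, SLC13, SLC20, SLC23, SLC24, SLC26, SLC30, SLC31, SLC34, SLC39, SLC40 and SLC41 on the array, apart from 2 genes of these subfamilies that were not part of the set. They came to 77 genes, each represented by the probe set with the highest mean log2 signal among the 184 probe sets that carry one of these symbols. The array named 13009 genes in all. RPE was isolated from White Leghorn embryos on embryonic day 14 (E14) or embryonic day 7 (E7) and grown on filters in 4 media, which gave 8 groups of 3 arrays and 24 arrays in all. At each age these were rcSF3 with serum, SF3 with serum, rcSF3, and SF3. SF3 is a serum-free medium, and rcSF3 is SF3 conditioned by neural retinas of E14 embryos for cultures of both ages, given in the apical chamber. Serum was added to some cultures, and the basal chamber of every culture held SF3 with bovine pituitary extract. Each array measured 1 biologic repeat, for which RPE of filters with a common plating day was pooled, so the groups stand for cultures of whole preparations and not for single embryos.

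The RPE separates the photoreceptors from the choroidal blood, and carriers in its apical and basal membranes move ions, water and nutrients between them. SLC4 and SLC9 carriers exchange bicarbonate and protons, SLC12 carriers couple chloride to sodium or potassium, SLC13 carriers take up sulfate and carboxylates with sodium, and SLC8 and SLC24 carriers exchange sodium for calcium. SLC39 proteins bring zinc into the cytosol and SLC30 proteins remove it, whereas SLC31, SLC11, SLC40 and SLC41 carry copper, iron and magnesium. Pigmented tissue of the eye is known for a high content of zinc and other metals bound to melanin.

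The values were array signals in arbitrary units, which can be compared between groups for 1 probe set but not between probe sets. Array medians ranged over signals of 89.3 to 121, and log2 signals of arrays of the same group correlated at 0.967 to 0.984 over all probe sets, against 0.883 to 0.978 for arrays of different groups. Of 14 marker genes of RPE, 13 were on the array, and each of the 13 had a mean signal over 100 in all 8 groups. The summed signal of 13 fibroblast markers moved with the media. It was 6883 to 9935 in E7 rcSF3 with serum, 14000 to 22510 in E7 SF3 with serum, 2280 to 4502 in E7 rcSF3, and 6157 to 10090 in E7 SF3. In E14 cultures it was 6607 to 14030 in rcSF3 with serum, 14770 to 14950 in SF3 with serum, 2999 to 4390 in rcSF3, and 6223 to 8265 in SF3. The genes of this list did not all move alike. COL1A1 averaged 4973 ± 1895 in E7 SF3 with serum and 475.7 ± 193 in E7 SF3, but COL3A1 averaged 1597 ± 46.4 and 1839 ± 115 (SD, n = 3 each). PDGFRA, TWIST1, TWIST2 and ACTA2 averaged under 100 in every group. The summed signal of 12 neuron and photoreceptor markers also moved with the media, at 2715 to 3125 in E7 rcSF3 with serum, 4828 to 5815 in E7 SF3 with serum, 4166 to 5160 in E7 rcSF3, and 6957 to 8047 in E7 SF3. In E14 cultures it was 1874 to 3177 in rcSF3 with serum, 2133 to 2829 in SF3 with serum, 2531 to 4608 in rcSF3, and 3069 to 5159 in SF3. Here too the genes differed. GNB3 averaged 712.6 ± 168 in E7 SF3 with serum and 1852 ± 344 in E7 SF3, but ARR3 averaged 224.4 ± 47.8 and 151.1 ± 20.3. SNAP25 averaged 2925 ± 780 in E7 rcSF3 and 1827 ± 458 in E7 SF3, against the direction of the sum (SD, n = 3 each). The sum over 6 markers of retinal glia and progenitors was highest in E7 SF3, at 56070 to 61190, and was 36380 to 53940 in the other groups. Among these FABP7, a fatty acid binding protein of glial progenitors, averaged 1066 ± 478 in E7 rcSF3 and 14070 ± 1064 in E7 SF3, and in E14 cultures 463.5 ± 225 in rcSF3 and 2597 ± 2400 in SF3 (SD, n = 3 each). The list did not move as 1. GLUL averaged 8760 ± 459 in E7 rcSF3 and 7175 ± 861 in E7 SF3. RLBP1, which is also an RPE marker, averaged 37270 ± 693 in E7 rcSF3 and 37980 ± 1985 in E7 SF3. The other genes of the list averaged under 100 in both groups. The summed signal of 5 blood markers moved with the media too. In E7 cultures it was 1071 to 1245 in SF3 with serum, 1603 to 1630 in rcSF3 and 724.7 to 908.3 in SF3. For E14 it was 2029 to 2322, 2369 to 2848 and 1279 to 1701. CSF1R averaged 1308 ± 126.9 in E7 rcSF3 and 512.5 ± 83.65 in E7 SF3 (SD, n = 3 each). PTPRC averaged under 100 in every group. Of 6 endothelial markers, only PECAM1 averaged over 100 in any group. The log2 ratio of the 3' to the 5' probe sets of actin, a measure of RNA integrity, moved with serum. In E7 cultures it was 0.37 ± 0.058 in SF3 with serum and 0.75 ± 0.12 in SF3, and in E14 cultures 0.40 ± 0.067 in SF3 with serum and 0.75 ± 0.034 in SF3 (SD, n = 3 each). In E7 rcSF3 the same ratio of GAPDH was 0.061 ± 0.045 with serum and -0.068 ± 0.045 without it (SD, n = 3 each). In SF3 the GAPDH ratio differed little with serum. It was -0.031 ± 0.036 in E7 SF3 with serum and -0.03 ± 0.026 in E7 SF3 (SD, n = 3 each). In E14 cultures it was -0.018 ± 0.024 in SF3 with serum and -0.033 ± 0.031 in SF3. The part of these markers and of these ratios in the results for the transporters was not tested.

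Of the 77 transporter genes, 48 were tested at E7 and 48 at E14, where a mean signal of at least 100 over the 12 arrays of that age was required. The 50 genes that passed at either age were tested between ages. The 27 genes that passed at neither age had mean signals between 5.04 and 83.0 and were not tested. They were SLC12A1, SLC13A1, SLC13A2, SLC20A1, SLC23A1, SLC23A3, SLC24A1, SLC24A4, SLC26A1, SLC26A2, SLC26A3, SLC26A4, SLC26A7, SLC30A7, SLC30A8, SLC34A2, SLC39A5, SLC40A1, SLC4A1, SLC4A5, SLC4A8, SLC8A1, SLC9A2, SLC9A3, SLC9A4, SLC9A5 and SLC9A9. A mean signal under 100 does not show that a gene was silent. A gene was called higher or lower when its adjusted p from limma, a linear model with moderated variances, was under 0.05 after adjustment over all probe sets tested. By this criterion, with no pairing of arrays, 35 of the 50 tested genes were called in at least 1 of 12 comparisons. The share of all probe sets called in at least 1 of them was not computed, so this count has no background beside it. In a single comparison up to 21.6% of all probe sets were called in 1 direction. The other 15 transporter genes were called in no comparison: SLC12A5, SLC12A8, SLC24A2, SLC24A3, SLC26A6, SLC26A8, SLC26A9, SLC30A2, SLC30A4, SLC31A1, SLC39A9, SLC4A3, SLC4A4, SLC4A11 and SLC9A7. In the comparisons between media or between ages, their log2 differences lay between -0.91 and 1.67, and their lowest adjusted p was 0.053. The tests of differences between responses are not part of this range. Among them were SLC4A4, the electrogenic sodium bicarbonate cotransporter of the RPE, SLC30A4, a zinc transporter of vesicles, and SLC31A1, the high-affinity copper importer.

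The first question was whether secretions of the neural retina alter the transporters. In E7 cultures, rcSF3 without serum raised 11 transporter genes and lowered 8 of 48, against a background of 13.6% of all probe sets called higher and 13.9% called lower. The median log2 difference was 0.034 for the transporters and -0.016 for all probe sets. SLC34A1, which passed the filter on signal only through its arrays with rcSF3, is counted among the 11 and also among those raised with serum in both media. In E14 cultures rcSF3 raised 2 and lowered 1 of 48, where 4.94% of all probe sets were called higher and 4.92% lower. Same-numbered arrays of these media deviated together. With the repeat number as a block the count in E7 cultures became 12 higher and 10 lower, while 31.7% of all probe sets were called. The added genes were SLC39A9, which was higher by 0.303 (adjusted p = 0.0068), and SLC23A2 and SLC30A10, which were lower, with log2 differences of -0.354 (adjusted p = 0.032) and -0.481 (adjusted p = 0.043). The count in E14 cultures became 5 higher and 4 lower, while 16.1% of all probe sets were called. There the added genes were SLC13A3, SLC26A8 and SLC41A2, which were higher, and SLC13A5, SLC26A5 and SLC30A5, which were lower. When both media contained serum, rcSF3 raised 10 and lowered 4 of 48 in E7 cultures (background 11.5% higher and 10.2% lower). It raised 1 and lowered 1 of 48 in E14 cultures (background 1.13% and 1.78%), and with the block 4 and 1, where 8.06% of all probe sets were called, with SLC13A3, SLC39A10 and SLC4A9 added.

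The second question was the effect of serum without rcSF3. It raised 12 transporter genes and lowered 12 of 48 in E7 cultures, against a background of 17.6% higher and 21.6% lower. SLC12A3, which passed the filter on signal only through its arrays in SF3, is counted among the 12 lowered. In E14 cultures serum raised 11 and lowered 5 of 48 (background 12.1% and 12.2%), a total of 16 that became 10 without SF3 with serum repeat 1 or 3 and 8 without moderated variances. The summed fibroblast, neuron and blood markers and the actin ratio given above moved with the same contrast, although not every gene of these lists did. The GAPDH ratio differed little in SF3. The third question was the age of the embryo. In SF3, 14 of 50 transporter genes were higher and 8 lower in E14 than in E7 cultures, where 15.6% of all probe sets were called higher and 20.2% lower. In rcSF3, 9 were higher and 4 lower in E14 cultures (background 11.1% and 12.4%). The comparisons that include SF3 share its 3 arrays at each age, so their values are given side by side and are not independent. Other tested probe sets of called genes gave 115 values in these comparisons, of which 102 had the direction of the brightest probe set, 58 of them called, and 13 had the opposite direction, none of them called. In 98 further cases the other probe set did not pass the filter on signal and was not tested. Because whole cultures were measured, fewer cells of a type and less RNA per cell cannot be told apart.

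**Figure D1:**
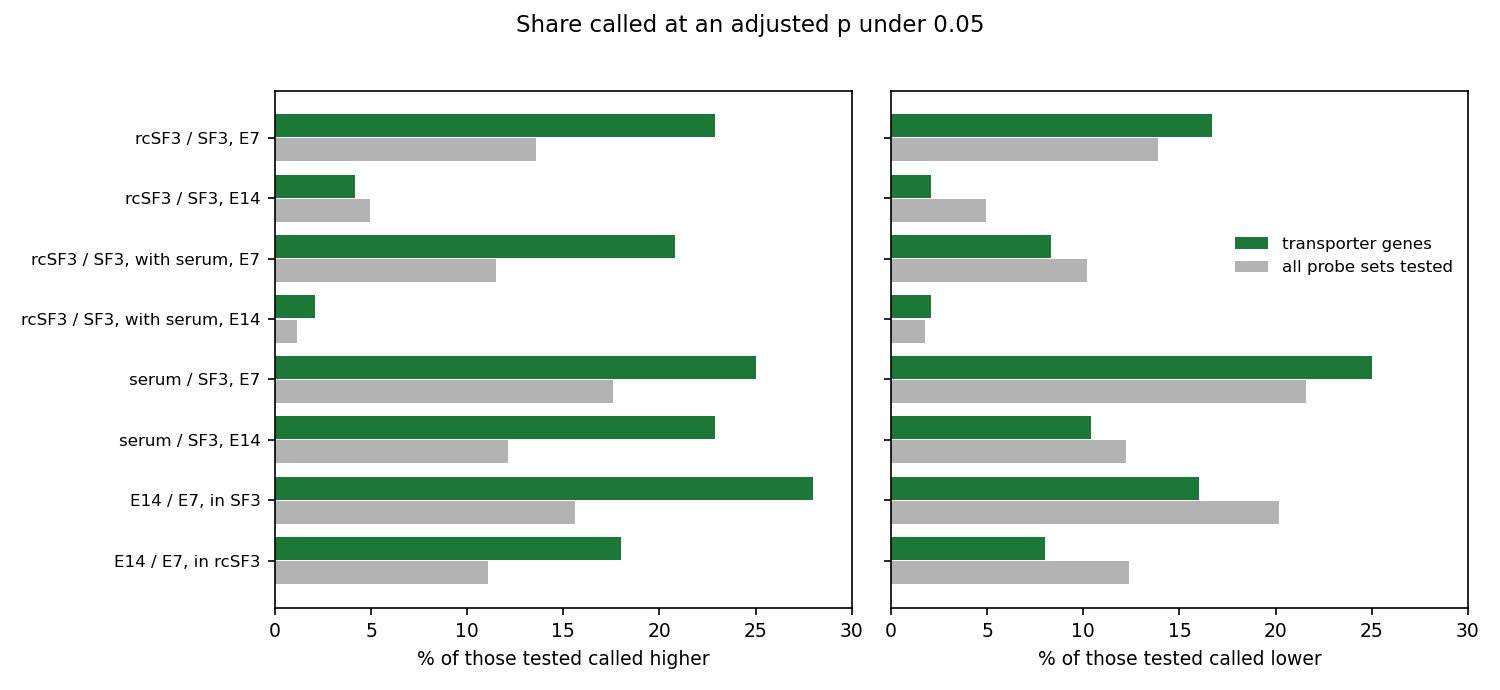
Share of the tested transporter genes (green) and of all tested probe sets (gray) called higher (left) and lower (right) at an adjusted p under 0.05, in percent, for 8 comparisons. For rcSF3 against SF3 in E7 cultures, 22.9% of the transporters were called higher against 13.6% of all probe sets, and in E14 cultures 4.17% against 4.94%. The 22.9% includes SLC34A1, which passed the filter on signal only through its arrays with rcSF3. All shares are from the test without a block. With the repeat number as a block, more transporters and more probe sets were called for rcSF3 in E14 cultures.

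**Figure D2:**
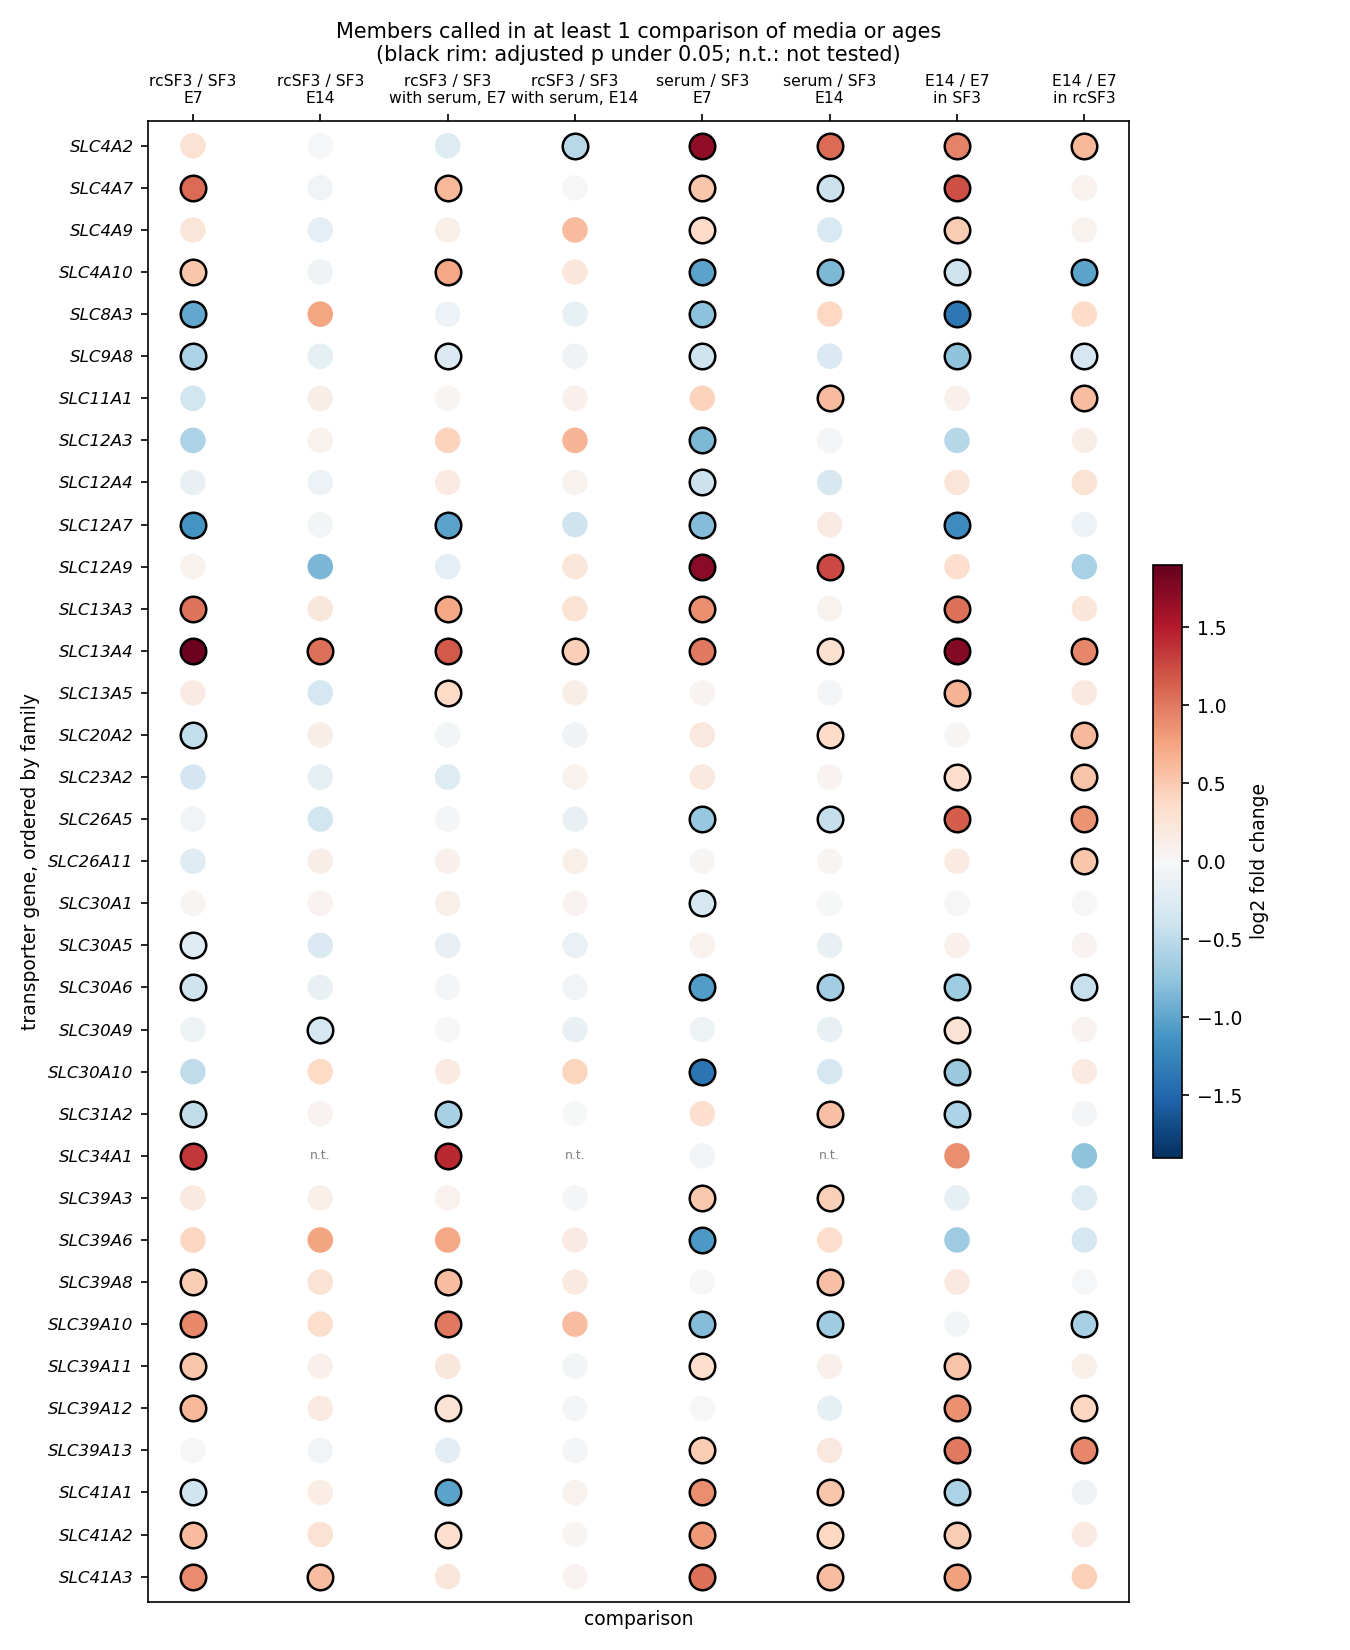
Log2 fold changes (color scale) of the 35 transporter genes that were called in at least 1 comparison, with a black rim where the adjusted p was under 0.05 and n.t. where a gene was not tested. SLC13A4 was called higher in all 8 comparisons shown, and SLC30A6 was called lower in 5 of them.

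Of 3 tested SLC13 carriers, 2 rose with rcSF3 and 2 with serum in E7 cultures, where 13.6% and 17.6% of all probe sets were called higher. They were SLC13A4 and SLC13A3 in both cases, while SLC13A5 differed by 0.15 (adjusted p = 0.27) with rcSF3. SLC13A4, which takes up sulfate with sodium, had the highest mean signal of its subfamily. Its signal was 8275, 7961 and 7828 in E7 rcSF3, against 2453, 2315 and 1902 in E7 SF3. All 3 arrays in rcSF3 lay far above the 3 in SF3, and the difference on the log2 scale was 1.86 (SE 0.086, adjusted p = 6.7e-09), or 3.63-fold. In E14 cultures the signal was 16960, 14920 and 13920 in rcSF3, against 8279, 6732 and 7228 in SF3. Again the groups did not overlap, and the log2 fold change was 1.04 (SE 0.096, adjusted p = 2.1e-05). With serum in both media it was 10710, 9365 and 9833 in E7 rcSF3 with serum, against 4284, 4409 and 4536 in E7 SF3 with serum. The log2 fold change was 1.17 (SE 0.086, adjusted p = 7.4e-07). The E14 arrays read 12170, 12340 and 13370 in rcSF3 with serum and 8126, 9242 and 9992 in SF3 with serum, without overlap (log2 difference 0.47, adjusted p = 0.018). This last call was lost without E14 SF3 with serum repeat 1 or E14 rcSF3 with serum repeats 2 or 3 (log2 value 0.39 to 0.49, adjusted p of 0.069 to 0.081). Serum alone raised SLC13A4 by 1.00 (SE 0.086, adjusted p = 1.6e-06) in E7 cultures. In E14 cultures it differed by 0.30 (adjusted p = 0.033), with 1 array in serum below the highest array in SF3. The second probe set of this gene was near background, so each of these values rests on 1 probe set.

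SLC13A3, the high-affinity carrier of succinate and other dicarboxylates, read 5373, 4449 and 4714 in E7 rcSF3 and 2809, 2051 and 2286 in E7 SF3. The arrays in rcSF3 were all higher, by 1.03 (SE 0.14, adjusted p = 6e-05) on the log2 scale. With serum in both media it was 7113, 7195 and 7357 in E7 rcSF3 with serum, against 3626, 5572 and 4080 in E7 SF3 with serum, again without overlap (log2 difference 0.73, SE 0.14, adjusted p = 0.0019). Serum alone raised it by 0.88 (SE 0.14, adjusted p = 0.00018) in E7 cultures. In E14 cultures it was called for neither medium by this test, with 0.22 (adjusted p = 0.22) for rcSF3 and 0.0656 (adjusted p = 0.69) for serum, although with the repeat number as a block the value for rcSF3 was 0.22 (adjusted p = 0.045). SLC13A5, the citrate carrier, was raised by rcSF3 in E7 cultures with serum, where its signal was 1606, 1653 and 1579 in rcSF3 with serum and 1076, 1311 and 1358 in SF3 with serum (log2 difference 0.38, SE 0.095, adjusted p = 0.011). In SF3 all 3 tested SLC13 genes were higher in E14 than in E7 cultures, where 15.6% of all probe sets were called higher. The log2 differences were 1.74 (SE 0.094, adjusted p = 2.5e-12) for SLC13A4, 1.04 (SE 0.13, adjusted p = 1.9e-06) for SLC13A3 and 0.66 (SE 0.1, adjusted p = 2.1e-05) for SLC13A5. In rcSF3 the age difference remained past the threshold for SLC13A4 (log2 difference 0.92, SE 0.094, adjusted p = 2.1e-07), while SLC13A3 differed by 0.23 (adjusted p = 0.23) and SLC13A5 by 0.18 (adjusted p = 0.2).

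Of the SLC26 anion exchangers, SLC26A5 and SLC26A11 were called. SLC26A5 encodes prestin, known as the motor protein of mammalian outer hair cells. It was higher in E14 cultures and lower with serum. Its signal in SF3 was 1183, 1063 and 1445 in E14 cultures, against 569, 465 and 634 in E7 cultures. The E14 arrays were all higher, by 1.15 (SE 0.15, adjusted p = 2.2e-06), and in rcSF3 they were higher by 0.85 (SE 0.15, adjusted p = 0.00018). Serum lowered it, to 313, 357 and 331 in E7 SF3 with serum against the SF3 values above (log2 difference -0.73, SE 0.15, adjusted p = 0.0018). For E14 the signal was 801, 976 and 905 in SF3 with serum, below every SF3 array (log2 difference -0.45, SE 0.14, adjusted p = 0.025), a call lost without E14 SF3 repeats 1 or 3 or E14 SF3 with serum repeats 1 or 3 (log2 value -0.48 to -0.33, adjusted p of 0.053 to 0.11). SLC26A11, a sulfate carrier that does not need sodium, had the highest mean signal of this subfamily and was higher in E14 than in E7 rcSF3, at 1224, 1276 and 1171 against 842, 812 and 900.0 (log2 difference 0.52, SE 0.11, adjusted p = 0.0016).

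Of 7 tested SLC4 bicarbonate carriers, rcSF3 raised 2 and serum raised 3 and lowered 1 in E7 cultures. The background was 13.6% higher for rcSF3, and 17.6% higher and 21.6% lower for serum. SLC4A7, an electroneutral sodium bicarbonate cotransporter, had the highest mean signal of its subfamily. It read 7584, 8309 and 7566 in E7 rcSF3, against 4003, 3187 and 4030 in E7 SF3. Every array in rcSF3 was well above the SF3 arrays, and the log2 fold change was 1.07 (SE 0.089, adjusted p = 7e-07), or 2.1-fold. The E14 arrays read 8443, 7933 and 8415 in rcSF3 and 8759, 7686 and 9566 in SF3. These groups overlapped, with a log2 difference of -0.0641 (adjusted p = 0.68). Serum raised SLC4A7 in E7 cultures (log2 difference 0.53, SE 0.089, adjusted p = 0.00033) and lowered it in E14 cultures (log2 difference -0.40, SE 0.08, adjusted p = 0.0022), where the signal was 6371, 6613 and 6602 in SF3 with serum. Its other 2 tested probe sets also rose with rcSF3 in E7 cultures, by 1.37 and 1.53, but with serum they gave -0.162 (adjusted p = 0.53) and 1.06. With serum in both media, rcSF3 raised it by 0.63 (SE 0.089, adjusted p = 0.00021) in E7 cultures. In SF3 it was higher in E14 than in E7 cultures by 1.22 (SE 0.086, adjusted p = 2.6e-10), whereas in rcSF3 the ages differed by 0.0805 (adjusted p = 0.54).

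SLC4A2, the anion exchanger that swaps chloride for bicarbonate, was raised by serum at both ages. Its signal was 1927, 2418 and 2000 in E7 SF3 with serum, against 695, 590.2 and 677 in E7 SF3. The serum arrays were all higher, by 1.69 (SE 0.12, adjusted p = 2.2e-07) on the log2 scale, or 3.22-fold. In E14 cultures it was 2707, 2581 and 2635 in SF3 with serum and 1122, 1129 and 1568 in SF3, again without overlap (log2 difference 1.07, SE 0.11, adjusted p = 1.9e-05). A dimmer probe set of SLC4A2, with a mean signal of 148, gave -0.0749 (adjusted p = 0.79) for serum in E7 and -0.511 (adjusted p = 0.18) in E14 cultures. In E14 cultures rcSF3 with serum had a lower signal than SF3 with serum, at 1829, 1752 and 1940 (log2 difference -0.52, SE 0.11, adjusted p = 0.024), a call lost without E14 SF3 with serum repeats 1 or 3 or E14 rcSF3 with serum repeats 1, 2 or 3 (log2 value -0.56 to -0.49, adjusted p of 0.051 to 0.12). SLC4A2 was higher in E14 than in E7 cultures, by 0.95 (SE 0.12, adjusted p = 1.2e-06) in SF3 and 0.63 (SE 0.12, adjusted p = 0.00035) in rcSF3. The dimmer probe set gave 0.0691 (adjusted p = 0.84) and 0.159 (adjusted p = 0.66) for these age differences, and 0.341 (adjusted p = 0.52) for rcSF3 with serum in E14 cultures, so every call of SLC4A2 rests on 1 of 2 tested probe sets.

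SLC4A10, another sodium-driven bicarbonate carrier that is known from neurons and the choroid plexus, fell with serum and rose with rcSF3 in E7 cultures. Serum lowered it to 441, 451 and 433 in E7 SF3 with serum, against 1001, 776 and 936 in E7 SF3. No serum array reached the lowest SF3 array (log2 difference -1.02, SE 0.12, adjusted p = 2.1e-05), and in E14 cultures the log2 fold change with serum was -0.86 (SE 0.14, adjusted p = 0.00061). With rcSF3 it rose in E7 cultures, to 1260, 1313 and 1327 in rcSF3 (log2 difference 0.53, SE 0.12, adjusted p = 0.0045), and with serum in both media by 0.73 (SE 0.12, adjusted p = 0.00082). In E14 rcSF3 its signal was 581, 623 and 744, below every E7 rcSF3 array (log2 difference -1.01, SE 0.13, adjusted p = 6.5e-06). SLC4A9 was raised by serum in E7 cultures (log2 difference 0.37, adjusted p = 0.036) and was higher in E14 than in E7 SF3 (log2 difference 0.49, adjusted p = 0.015).

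Of the SLC9 sodium-proton exchangers, SLC9A8 and SLC9A7 were tested. SLC9A8, which is known from the Golgi and from apical membranes, fell with rcSF3 and with age. It read 2286, 1956 and 2076 in E7 rcSF3 and 3389, 2898 and 3347 in E7 SF3. All arrays in rcSF3 were lower (log2 difference -0.61, SE 0.083, adjusted p = 7.3e-05). Serum also lowered it in E7 cultures (log2 difference -0.39, SE 0.083, adjusted p = 0.0019), and rcSF3 with serum was lower than SF3 with serum (log2 difference -0.28, SE 0.083, adjusted p = 0.028), a call lost without E7 SF3 with serum repeats 1, 2 or 3 or E7 rcSF3 with serum repeats 1 or 2 (log2 value -0.29 to -0.26, adjusted p of 0.064 to 0.099). E14 cultures had 1718, 2124 and 1840 in SF3, below every E7 SF3 array (log2 difference -0.76, SE 0.097, adjusted p = 2e-06). The age difference in rcSF3 was -0.33 (SE 0.097, adjusted p = 0.015), a call lost without E14 rcSF3 repeat 1 or E7 rcSF3 repeat 1 (log2 value -0.27 to -0.22, adjusted p of 0.079 to 0.12). A second probe set of SLC9A8, with a mean signal of 115, was called in none of these comparisons.

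Carbonic anhydrases supply these carriers with bicarbonate, and 7 of 12 listed genes were tested. In E7 cultures rcSF3 raised 2 and lowered 1, and serum raised 3 and lowered 2. The background was 13.6% higher and 13.9% lower for rcSF3, and 17.6% and 21.6% for serum. CA14, a membrane-bound enzyme with its active site outside the cell, rose with serum by 2.87 (adjusted p = 8e-08) on the log2 scale and with rcSF3 by 0.94 (adjusted p = 0.00089). CA2, the abundant cytosolic enzyme, fell with serum (log2 difference -0.49, adjusted p = 5.1e-05), and CA8, a relative without enzyme activity, fell with rcSF3 (log2 difference -0.39, adjusted p = 0.00069). In SF3, CA12 was higher in E14 than in E7 cultures by 2.45 (adjusted p = 2.1e-07) and CA10 by 0.90 (adjusted p = 6.7e-10), and 2 others were lower. For age the background was 15.6% higher and 20.2% lower. Of 9 sodium and calcium pump genes tested at E7, rcSF3 raised 2 and lowered 3, and serum raised 3 and lowered 2. The backgrounds for rcSF3 and serum were those given for the carbonic anhydrases. FXYD6, a regulator of the sodium pump, rose with rcSF3 by 0.87 (adjusted p = 5.8e-06) and with serum by 0.94 (adjusted p = 3.8e-06), and it was higher in E14 than in E7 SF3 by 1.43 (adjusted p = 9e-12). ATP1B1, the beta subunit of the pump, fell with rcSF3 (log2 difference -0.49, adjusted p = 9.2e-06), and FXYD2 fell with serum (log2 difference -0.73, adjusted p = 0.0042).

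**Figure D3:**
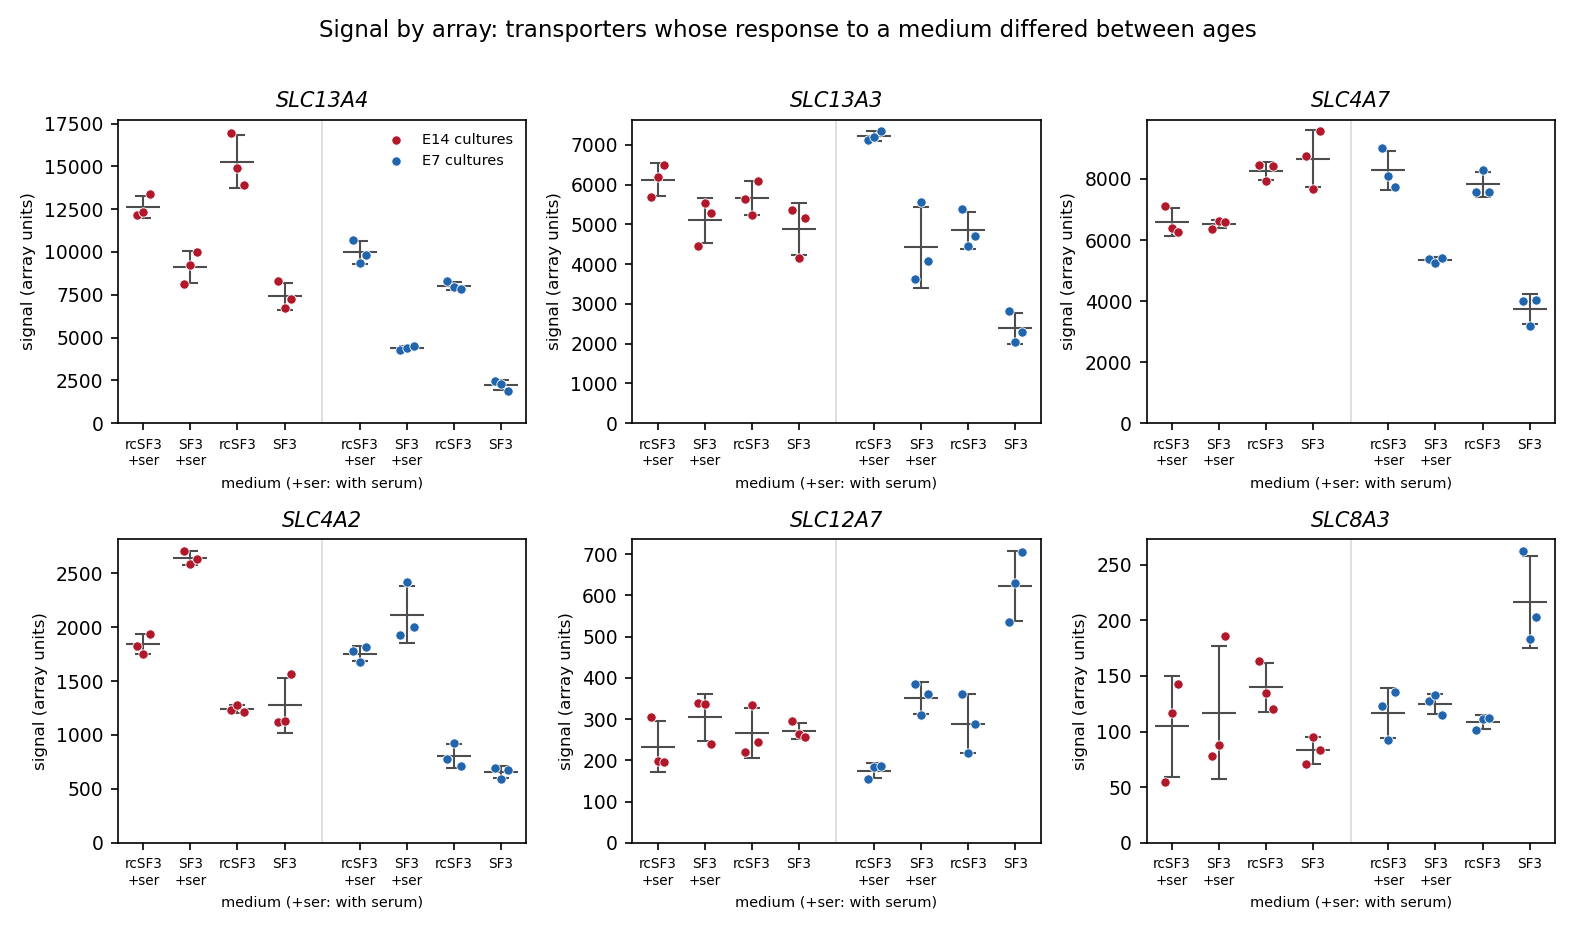
Signal of 6 transporter genes on each array, in array units on a linear axis from 0, with E14 cultures (red) left of E7 cultures (blue) and rcSF3 with serum, SF3 with serum, rcSF3 and SF3 at each age. Points are arrays, long lines are means and bars are SD (n = 3). In SF3 the E7 arrays of SLC13A4 lie between 1902 and 2453, below all its other arrays, and the E7 arrays of SLC12A7 lie between 536 and 704, above all its others.

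Of 6 tested SLC12 cation-chloride cotransporters, rcSF3 lowered 1 in E7 cultures, and serum lowered 3 and raised 1. The 3 include SLC12A3, which passed the filter on signal only through its arrays in SF3. The background was 13.9% lower for rcSF3, and 21.6% lower and 17.6% higher for serum. SLC12A7, a potassium chloride cotransporter, read 362, 218 and 287 in E7 rcSF3, against 536, 631 and 704 in E7 SF3. The groups did not overlap, and the log2 fold change was -1.13 (SE 0.18, adjusted p = 0.00031). Serum lowered it to 385, 309 and 361 in E7 SF3 with serum (log2 difference -0.82, SE 0.18, adjusted p = 0.0025), and rcSF3 with serum was lower still at 154, 184 and 186 (log2 difference -1.01, SE 0.18, adjusted p = 0.0014). In SF3 the E14 arrays read 294, 263 and 256, below every E7 array (log2 difference -1.20, SE 0.2, adjusted p = 7.7e-05). A second probe set of SLC12A7 fell with rcSF3 in E7 cultures by 1.12 (adjusted p = 0.0059), but it gave -0.288 (adjusted p = 0.49) for rcSF3 with serum and -0.702 (adjusted p = 0.082) for age. SLC12A4, a related cotransporter found in most cells and the brightest of this subfamily, was lowered by serum in E7 cultures, with 896, 809 and 823 in SF3 with serum against 1046, 1204 and 1120 in SF3 (log2 difference -0.41, SE 0.12, adjusted p = 0.016). Its other 2 tested probe sets gave -0.272 (adjusted p = 0.092) and 0.188 (adjusted p = 0.59).

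SLC12A3, the thiazide-sensitive carrier of the kidney, was near the lower limit of measurement, at 53.6, 111 and 99.1 in E7 SF3 with serum and 170.2, 141 and 143 in E7 SF3. It averaged 109.4 over the E7 arrays and passed the filter only through its arrays in SF3, the group where it was high. Its call for serum is therefore no independent support for a decrease. The serum arrays were all lower (log2 difference -0.85, SE 0.28, adjusted p = 0.026), but the call was lost with no filter on signal. It was also lost without E7 SF3 repeats 1 or 3 or E7 SF3 with serum repeat 1 (log2 value -0.88 to -0.53, adjusted p of 0.051 to 0.13). With signals under 100 raised to 100, under the same filter, the difference was -0.54 (adjusted p = 0.016). SLC12A9, a member with no settled substrate, was called higher with serum in both E7 cultures (log2 difference 1.71, SE 0.56, adjusted p = 0.026) and E14 cultures (log2 difference 1.25, SE 0.42, adjusted p = 0.04), although its arrays overlapped. In E7 SF3 its 3 arrays read 77.8, 397 and 70.3, so the spread within the group was wide.

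Of 12 tested genes for kinases and scaffolds that act on these carriers, rcSF3 raised 2 and lowered 3 in E7 cultures, and serum raised 2 and lowered 4. The background was 13.6% higher and 13.9% lower for rcSF3, and 17.6% and 21.6% for serum. CAB39L, a scaffold of the kinases that regulate chloride cotransporters, fell with rcSF3 (log2 difference -2.74, adjusted p = 1e-06) and with serum (log2 difference -1.67, adjusted p = 8.4e-05). Its log2 difference between E14 and E7 cultures in SF3 was -1.45 (adjusted p = 1.8e-05). SLC9A3R2, a scaffold of sodium-proton exchangers, rose with serum by 2.07 (adjusted p = 8.8e-07), whereas SLC9A3R1, a second such scaffold, fell with rcSF3 (log2 difference -1.08, adjusted p = 0.00019). TESC, a calcium-binding partner of sodium-proton exchangers, was higher in E14 than in E7 SF3 by 2.66 (adjusted p = 4.2e-10).

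The sodium-calcium exchangers were dim. SLC8A3, the one SLC8 gene tested, read 101, 112 and 112 in E7 rcSF3 and 262, 183 and 203 in E7 SF3. The arrays in rcSF3 were all lower (log2 difference -0.98, SE 0.22, adjusted p = 0.0038). Serum gave 127, 133 and 115 in E7 SF3 with serum (log2 difference -0.78, SE 0.22, adjusted p = 0.012), a call lost without E7 SF3 repeat 1 (log2 value -0.63, adjusted p = 0.06). In E14 SF3 the signal was 70.7, 95.2 and 83.1, below all E7 SF3 arrays and under 100, where changes are poorly measured (log2 difference -1.37, SE 0.32, adjusted p = 0.0019). With signals under 100 raised to 100 it was -1.10 (adjusted p = 0.00018). SLC24A3, a potassium-dependent exchanger and the brightest of the SLC24 genes, was not called in any of the 12 comparisons. Of 9 tested magnesium and calcium channel genes and their partners, rcSF3 lowered 2 in E7 cultures and serum raised 2 and lowered 2. The background was 13.9% lower for rcSF3, and 17.6% higher and 21.6% lower for serum. TRPM7, a channel for magnesium and calcium that carries its own kinase, fell with serum (log2 difference -1.01, adjusted p = 1.8e-05) and with rcSF3 (log2 difference -0.40, adjusted p = 0.021), and STIM1, the calcium sensor of the endoplasmic reticulum, rose with serum by 0.96 (adjusted p = 2.2e-05).

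Of the phosphate carriers, SLC20A2 and SLC34A1 were tested. SLC20A2, a sodium phosphate cotransporter present in most cells, read 450.4, 504 and 450.2 in E7 rcSF3 and 727, 552 and 672 in E7 SF3. The arrays in rcSF3 were all lower (log2 difference -0.47, SE 0.13, adjusted p = 0.012), but the call was lost without E7 SF3 repeat 1 (log2 value -0.38, adjusted p = 0.059), and a second probe set gave 0.312 (adjusted p = 0.61). In rcSF3 the signal was 597, 785 and 782 in E14 cultures, above every E7 array (log2 difference 0.61, SE 0.12, adjusted p = 9e-04), whereas the second probe set gave -0.226 (adjusted p = 0.71). SLC34A1, the phosphate carrier of the kidney proximal tubule, averaged 102.8 over the E7 arrays. All its E7 arrays without rcSF3 lay under 100, so it passed the filter only through its arrays with rcSF3. Its calls for rcSF3 are therefore no independent support for an increase, and its other probe sets, with mean signals of 29 to 64.1, were not tested. It read 125, 130.4 and 279.9 in E7 rcSF3 and 90.4, 34.3 and 88.5 in E7 SF3, without overlap (log2 difference 1.35, SE 0.45, adjusted p = 0.035). With signals under 100 raised to 100 this was 0.73 (adjusted p = 0.074), and the call was lost without E7 SF3 repeat 2 or E7 rcSF3 repeat 3 (log2 value 0.89 to 0.97, adjusted p = 0.16). The value with serum in both media was 1.43 (SE 0.45, adjusted p = 0.033), and 0.74 (adjusted p = 0.079) with raised signals, a call lost without E7 SF3 with serum repeats 2 or 3 or E7 rcSF3 with serum repeats 1 or 3 (log2 value 1.14 to 1.45, adjusted p of 0.071 to 0.14).

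ANKH, which releases ATP and so supplies pyrophosphate outside the cell, fell with rcSF3 in E7 cultures (log2 difference -1.88, adjusted p = 2.2e-05), and XPR1, the phosphate exporter, fell (log2 difference -0.31, adjusted p = 0.028). These were 2 of 3 tested genes of phosphate and vitamin C handling, where 13.9% of all probe sets were called lower. SLC23A2, the vitamin C carrier of most tissues, read 669.5, 583 and 534 in E14 rcSF3 and 386, 448 and 390.4 in E7 rcSF3. The E14 arrays were all higher (log2 difference 0.54, SE 0.12, adjusted p = 0.0027), and in SF3 the difference was 0.35 (adjusted p = 0.03). Its other 4 tested probe sets gave -0.142 to 0.644 in rcSF3, none of them called, and -0.687 to 0.66 in SF3, where the highest was called (adjusted p = 0.037).

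In E7 cultures rcSF3 raised 4 of 8 tested SLC39 zinc importers and lowered none, with a median log2 difference of 0.446, and it lowered 2 of 6 tested SLC30 zinc transporters and raised none, with a median of -0.165, where 13.6% of all probe sets were called higher and 13.9% lower. With the repeat number as a block SLC39A9 was also called higher, and SLC30A10 lower. The SLC30 calls without the block were those of SLC30A6 and SLC30A5, and neither was shared by the second tested probe set of the gene. The difference between the subfamilies was not tested. SLC39A12, a zinc importer known from brain and eye, read 5556, 5320 and 5822 in E7 rcSF3 and 4156, 3230 and 3429 in E7 SF3. All arrays in rcSF3 were higher (log2 difference 0.63, SE 0.093, adjusted p = 0.00014). With the median over its probe sets the difference was 0.43 (adjusted p = 0.061). SLC39A10, an importer of the plasma membrane, read 1668, 2425 and 1955 in E7 rcSF3 and 965, 1248 and 986 in E7 SF3, without overlap (log2 difference 0.91, SE 0.19, adjusted p = 0.0025). With serum in both media it rose with rcSF3 by 1.00 (SE 0.19, adjusted p = 0.0021). SLC39A8, which carries manganese as well as zinc and was the brightest of the SLC39 genes, rose with rcSF3 in E7 cultures, with 6807, 6394 and 5501 in rcSF3 against 5291, 3800 and 4355 in SF3 (log2 difference 0.48, SE 0.11, adjusted p = 0.003). The increase with serum in both media was 0.59 (SE 0.11, adjusted p = 0.0013). SLC39A11, whose protein lies in the Golgi and nucleus, was the fourth, with 3136, 3152 and 3175 in rcSF3 and 2281, 2208 and 2110 in SF3 (log2 difference 0.52, SE 0.082, adjusted p = 0.00024).

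Serum moved the SLC39 genes both ways, with 3 of 8 higher and 2 lower in E7 cultures (background 17.6% and 21.6%). SLC39A10 fell to 692, 698 and 447 in E7 SF3 with serum (log2 difference -0.82, SE 0.19, adjusted p = 0.0038). For E14 it was 509, 849 and 614 in SF3 with serum and 1141, 1091 and 862 in SF3 (log2 difference -0.67, SE 0.2, adjusted p = 0.026), a call lost without E14 SF3 repeats 1 or 2 or E14 SF3 with serum repeats 1 or 3 (log2 value -0.64 to -0.50, adjusted p of 0.072 to 0.12). SLC39A3, an importer of the plasma membrane, rose with serum in E7 cultures (log2 difference 0.51, SE 0.11, adjusted p = 0.0025) and in E14 cultures (log2 difference 0.46, SE 0.11, adjusted p = 0.0099). SLC39A8 rose with serum in E14 cultures, to 7351, 7157 and 8091 in SF3 with serum against 5078, 4178 and 6188 in SF3 (log2 difference 0.57, SE 0.11, adjusted p = 0.0022), whereas in E7 cultures the difference was 0.00241 (adjusted p = 0.99). SLC39A6 was lower with serum in E7 cultures, at 101, 57.4 and 63.3 in SF3 with serum and 123, 184 and 154 in SF3 (log2 difference -1.09, SE 0.28, adjusted p = 0.0063), but its serum arrays lay around or under 100, and with signals raised to 100 the value was -0.60 (adjusted p = 0.018).

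SLC39A13 was higher in E14 cultures in both media compared. This Golgi zinc transporter, whose loss impairs connective tissue in humans, read 3480, 3278 and 3611 in E14 SF3, against 1604, 1716 and 1862 in E7 SF3. The E14 arrays lay far above the E7 arrays, with a log2 difference of 1.00 (SE 0.082, adjusted p = 2.4e-09). In rcSF3 it was 3542, 3202 and 3123 in E14 and 1538, 1840 and 1840 in E7 cultures, again without overlap (log2 difference 0.92, SE 0.082, adjusted p = 2.6e-08). SLC39A12 was also higher in E14 cultures, by 0.86 (SE 0.11, adjusted p = 1.1e-06) in SF3 and 0.40 (SE 0.11, adjusted p = 0.0072) in rcSF3. Another of its probe sets, with a mean signal of 2100, gave 0.385 (adjusted p = 0.067) and 0.094 (adjusted p = 0.72), while its remaining tested probe sets were called higher in both media. The median over its probe sets gave 0.43 (adjusted p = 0.043) in SF3 and 0.15 (adjusted p = 0.54) in rcSF3. SLC39A11 was higher in E14 SF3 by 0.54 (adjusted p = 2e-05). SLC39A10 was lower in E14 than in E7 rcSF3 (log2 difference -0.63, SE 0.22, adjusted p = 0.038), a call lost without E14 rcSF3 repeats 1 or 2 or E7 rcSF3 repeats 2 or 3 (log2 value -0.64 to -0.49, adjusted p of 0.073 to 0.16).

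Among the SLC30 transporters, SLC30A6, which forms a pair with SLC30A5 to load zinc into the early secretory pathway, was lowered by serum and was lower with age. It read 519, 439.7 and 507 in E7 SF3 with serum and 943, 1057 and 1055 in E7 SF3. The serum arrays were all far below the SF3 arrays (log2 difference -1.06, SE 0.1, adjusted p = 3.8e-06). The E14 arrays had 351, 481 and 379.7 in SF3 with serum and 613, 616 and 664 in SF3, without overlap (log2 difference -0.66, SE 0.14, adjusted p = 0.003). Its signal with rcSF3 in E7 cultures was 769.7, 800.3 and 756 (log2 difference -0.39, SE 0.1, adjusted p = 0.0099). Between E14 and E7 cultures the log2 difference was -0.69 (SE 0.11, adjusted p = 4.9e-05) in SF3 and -0.44 (SE 0.11, adjusted p = 0.007) in rcSF3. A second tested probe set of SLC30A6, with a mean signal of 365, also fell with serum in E7 cultures, at -0.452 (adjusted p = 0.015), but it gave -0.205 (adjusted p = 0.34) for serum in E14 cultures, 0.227 (adjusted p = 0.24) for rcSF3 in E7 cultures, and -0.191 and -0.208 for age in SF3 and rcSF3 (adjusted p = 0.27 for both). The calls of SLC30A6 other than that for serum in E7 cultures thus rest on 1 of 2 tested probe sets. SLC30A5 fell slightly with rcSF3 in E7 cultures (log2 difference -0.24, SE 0.076, adjusted p = 0.031), a call lost without E7 SF3 repeat 2 or E7 rcSF3 repeats 2 or 3 (log2 value -0.24 to -0.17, adjusted p of 0.063 to 0.14), and its second probe set gave -0.0323 (adjusted p = 0.83).

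SLC30A10, a carrier known in mammals for manganese export, read 152, 124 and 199 in E7 SF3 with serum and 445, 397 and 384 in E7 SF3. Its decrease with serum was the largest of the 48 members tested in E7 cultures (log2 difference -1.39, SE 0.21, adjusted p = 0.00012). In E14 SF3 it was 343, 183 and 252, below the E7 SF3 arrays (log2 difference -0.70, SE 0.22, adjusted p = 0.018), a call lost without E14 SF3 repeat 2 or E7 SF3 repeat 1 (log2 value -0.64 to -0.47, adjusted p of 0.061 to 0.12). SLC30A9, a zinc transporter of mitochondria, was the only transporter that fell with rcSF3 in E14 cultures by the test without a block, with 2274, 2138 and 2647 in rcSF3 and 2910, 2919 and 3049 in SF3 (log2 difference -0.34, SE 0.087, adjusted p = 0.023). That call was lost without E14 SF3 repeats 1, 2 or 3 or E14 rcSF3 repeats 1 or 2 (log2 value -0.35 to -0.27, adjusted p of 0.054 to 0.1). SLC30A1, the zinc exporter of the plasma membrane, fell with serum in E7 cultures (log2 difference -0.34, adjusted p = 0.006). SLC30A4, the brightest SLC30 gene, read 4764, 4482 and 4676 in E7 rcSF3 and 5492, 4413 and 4732 in E7 SF3, and these arrays overlapped (log2 difference -0.0667, adjusted p = 0.63).

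The metallothioneins MT3 and MT4, which bind zinc and copper, were 2 of 4 tested genes of zinc binding and regulation. In E7 cultures MT3 rose with serum by 2.06 (adjusted p = 3e-08) and with rcSF3 by 1.31 (adjusted p = 8.7e-07), and MT4 rose by 1.51 (adjusted p = 1.2e-07) with serum and by 1.00 (adjusted p = 3.1e-06) with rcSF3. In SF3 they were higher in E14 than in E7 cultures, by 2.44 (adjusted p = 1.1e-10) for MT3 and 1.41 (adjusted p = 2.4e-09) for MT4. The remaining 2 genes of this list were not called in these 3 comparisons. The share of all probe sets called higher was 17.6% for serum, 13.6% for rcSF3 and 15.6% for age in SF3.

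The SLC41 magnesium carriers rose together with serum. By their brightest probe sets, all 3 tested genes, SLC41A1, SLC41A2 and SLC41A3, were called higher at both ages, against 17.6% of all probe sets in E7 and 12.1% in E14 cultures. SLC41A1, a sodium-magnesium exchanger of the plasma membrane, read 2583, 2742 and 2680 in E7 SF3 with serum and 1466, 1686 and 1221 in E7 SF3. The serum arrays were all higher (log2 difference 0.88, SE 0.12, adjusted p = 5.9e-05), whereas rcSF3 with serum had 1229, 1352 and 1376, below every array in SF3 with serum (log2 difference -1.02, SE 0.12, adjusted p = 5.3e-05). Another probe set of SLC41A1 also rose with serum in E7 cultures, by 0.773, and the other gave -0.284. With serum in E14 cultures these gave 0.405 (adjusted p = 0.16) and 0.508 (adjusted p = 0.11). SLC41A2, the brightest of the subfamily, read 3002, 2687 and 3267 in E7 SF3 with serum, 2949, 2524 and 2214 in E7 rcSF3, and 1637, 1805 and 1589 in E7 SF3. Both media exceeded SF3 on every array, by 0.83 (SE 0.11, adjusted p = 4.2e-05) for serum and 0.60 (SE 0.11, adjusted p = 0.00074) for rcSF3. A second probe set of SLC41A2 was called for rcSF3 in E7 cultures (0.549, adjusted p = 0.012). With serum it was not called, at 0.345 (adjusted p = 0.08) in E7 and 0.211 (adjusted p = 0.25) in E14 cultures.

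SLC41A3, a magnesium carrier located in mitochondria, was called higher with rcSF3 at both ages. It read 215, 215 and 297 in E7 rcSF3 and 158, 104 and 129.8 in E7 SF3, without overlap (log2 difference 0.90, SE 0.21, adjusted p = 0.0058). The E14 signal was 310.4, 306 and 373 in rcSF3 and 186, 241 and 237 in SF3 (log2 difference 0.58, SE 0.16, adjusted p = 0.035), a call lost without E14 SF3 repeats 1 or 2 or E14 rcSF3 repeats 1, 2 or 3 (log2 value 0.46 to 0.65, adjusted p of 0.054 to 0.13). Serum raised SLC41A3 in E7 cultures by 1.04 (SE 0.21, adjusted p = 0.0015). In E14 cultures serum gave 0.58 (SE 0.16, adjusted p = 0.017) for SLC41A3, lost without E14 SF3 repeat 1 or E14 SF3 with serum repeats 3 or 2 (log2 value 0.46 to 0.53, adjusted p of 0.059 to 0.079). It gave 0.52 (SE 0.16, adjusted p = 0.029) for SLC41A1, lost without E14 SF3 repeat 1 or E14 SF3 with serum repeat 1 (log2 value 0.30 to 0.41, adjusted p of 0.12 to 0.13). For SLC41A2 it gave 0.40 (SE 0.11, adjusted p = 0.019), lost without E14 SF3 repeat 2 or E14 SF3 with serum repeat 1 (log2 value 0.30 to 0.34, adjusted p of 0.076 to 0.086). In SF3, SLC41A3 and SLC41A2 were higher in E14 than in E7 cultures, by 0.77 (SE 0.19, adjusted p = 0.0027) and 0.48 (SE 0.12, adjusted p = 0.0021), and SLC41A1 was lower (log2 difference -0.60, SE 0.15, adjusted p = 0.0032).

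Of the copper and iron carriers, SLC31A1, SLC31A2 and SLC11A1 were tested. SLC31A2, a copper transporter of late endosomes, read 292, 294 and 284 in E7 rcSF3 and 360.4, 452 and 413 in E7 SF3. The arrays in rcSF3 were all lower (log2 difference -0.49, SE 0.13, adjusted p = 0.012), a call lost without E7 SF3 repeat 2 (log2 value -0.41, adjusted p = 0.059). With serum in both media, rcSF3 with serum had 311, 376 and 301 and SF3 with serum 481, 521 and 515, without overlap (log2 difference -0.62, SE 0.13, adjusted p = 0.0038). Serum raised SLC31A2 in E14 cultures (log2 difference 0.57, SE 0.15, adjusted p = 0.012), a call lost without E14 SF3 repeat 3 or E14 SF3 with serum repeat 1 (log2 value 0.48 to 0.49, adjusted p of 0.051 to 0.056). In SF3 it was lower in E14 than in E7 cultures (log2 difference -0.58, SE 0.13, adjusted p = 0.0012). SLC11A1, a metal transporter of phagosomes, read 393, 332 and 287 in E14 SF3 with serum and 188, 243 and 238 in E14 SF3, without overlap (log2 difference 0.59, SE 0.19, adjusted p = 0.033), and the call was lost without E14 SF3 repeat 1 or E14 SF3 with serum repeats 1 or 2 (log2 value 0.48 to 0.60, adjusted p of 0.071 to 0.13). SLC40A1, the iron exporter ferroportin, had a mean signal of 38.8 and was not tested.

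Of 11 tested iron genes in E7 cultures, rcSF3 lowered 3 and raised none, and serum lowered 4 and raised none. The background was 13.6% higher and 13.9% lower for rcSF3, and 17.6% and 21.6% for serum. TFRC, the transferrin receptor, fell with rcSF3 in E7 cultures (log2 difference -0.88, adjusted p = 4.3e-07) and in E14 cultures (log2 difference -0.73, adjusted p = 0.00034), and FTL, a ferritin subunit, also fell with rcSF3 in E7 cultures (log2 difference -0.41, adjusted p = 0.0068) and in E14 cultures (log2 difference -0.46, adjusted p = 0.0029). FTH1, the other ferritin subunit, fell with serum in E7 cultures (log2 difference -0.28, adjusted p = 0.002). In SF3, ACO1, an iron-sensing RNA-binding protein, was higher in E14 than in E7 cultures by 0.66 (adjusted p = 3e-08), and TFRC was lower (log2 difference -0.81, adjusted p = 2e-07). Of 7 tested copper genes, ATP7B, a copper pump, fell with serum in E7 cultures (log2 difference -0.91, adjusted p = 9e-04) and in E14 cultures (log2 difference -1.06, adjusted p = 0.00066). SOD3, an extracellular superoxide dismutase that needs copper, was higher in E14 than in E7 SF3 by 2.26 (adjusted p = 1.4e-12) and fell with rcSF3 in E7 cultures (log2 difference -0.42, adjusted p = 0.0046).

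**Figure D4:**
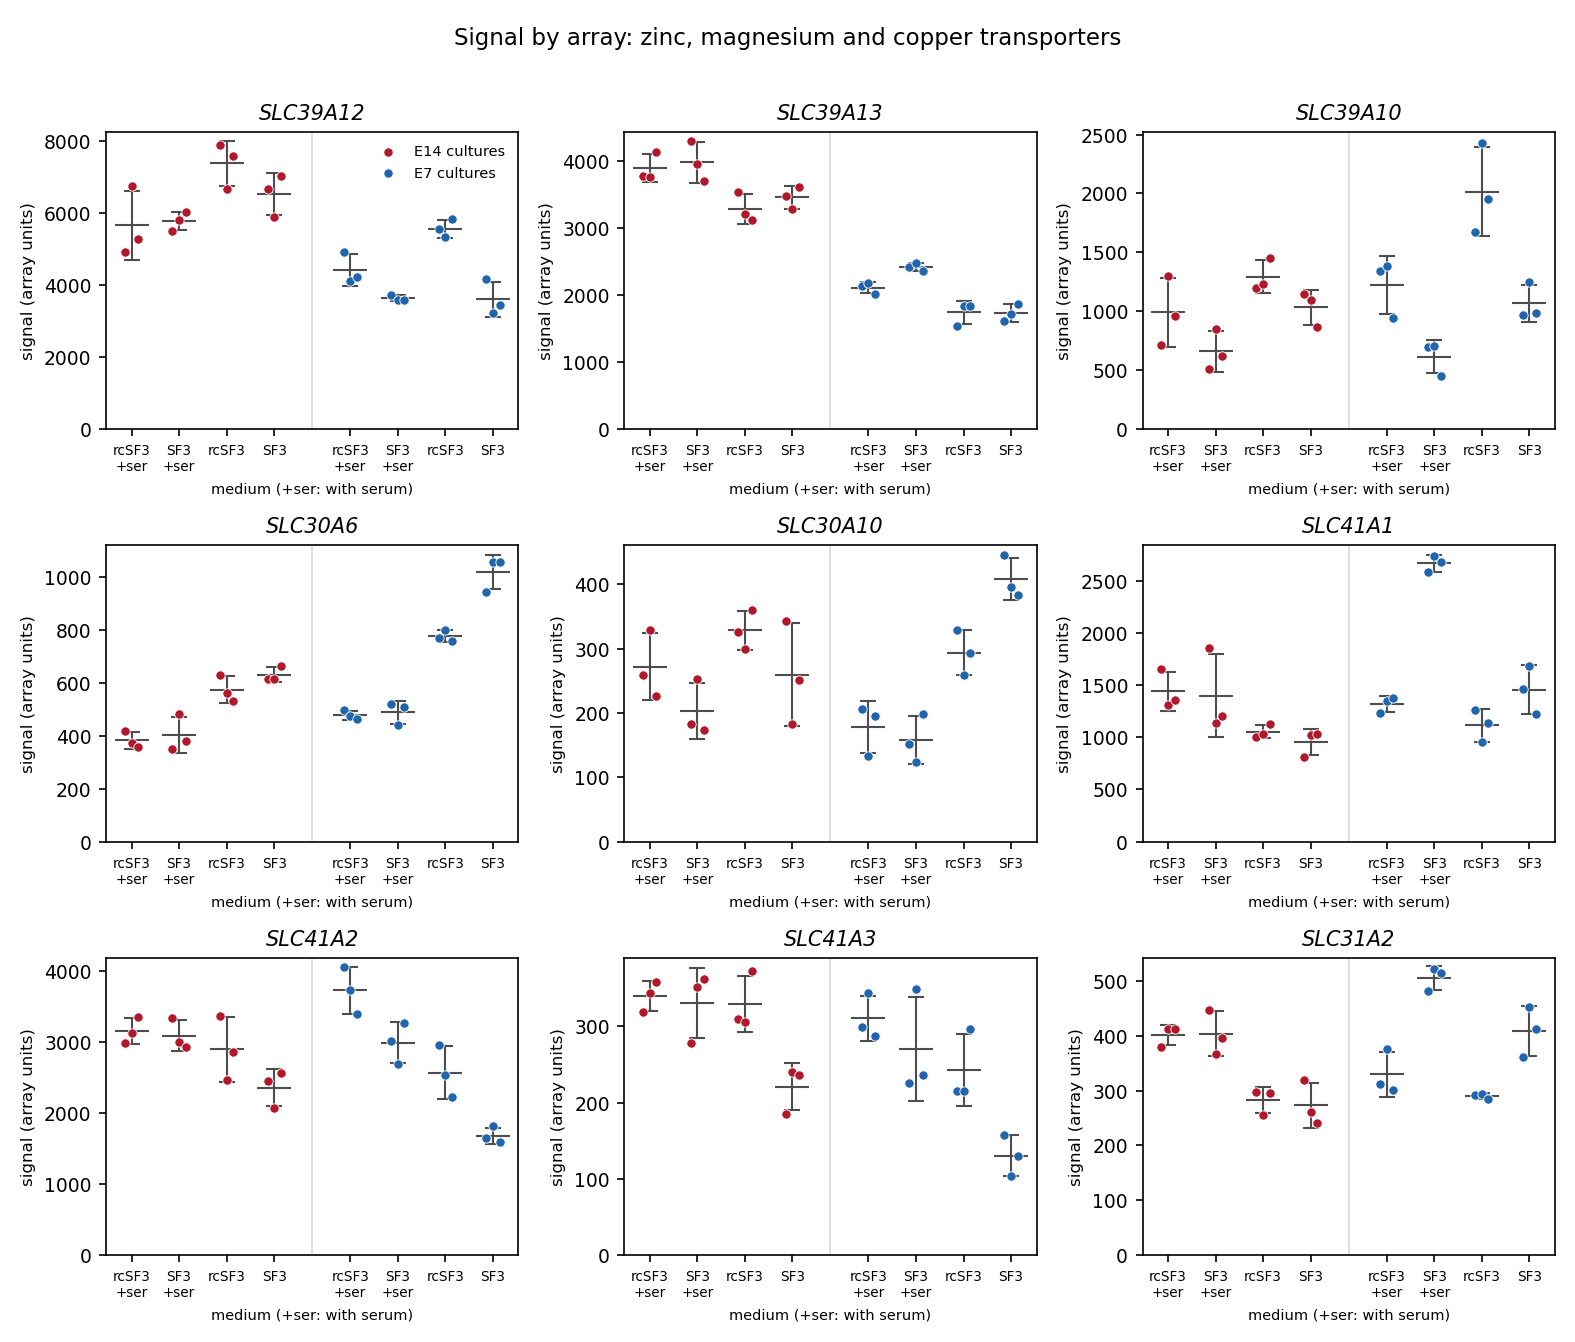
Signal of 9 zinc, magnesium and copper transporter genes on each array, in array units on a linear axis from 0, with E14 cultures (red) left of E7 cultures (blue) and rcSF3 with serum, SF3 with serum, rcSF3 and SF3 at each age. Points are arrays, long lines are means and bars are SD (n = 3). The E14 arrays of SLC39A13 lie above all its E7 arrays, and the E7 arrays of SLC41A1 in SF3 with serum, between 2583 and 2742, lie above all its others.

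Whether the response to a medium depended on age was tested directly, as the E14 response minus the E7 response. For rcSF3 this difference was called for 6 of 50 transporter genes, 2 with a positive sign and 4 with a negative one. Of all probe sets, 2.33% were called with a positive sign and 3.03% with a negative one. With the repeat number as a block 13 of 50 were called, where 9.76% of all probe sets were. SLC4A7 had a difference of -1.14 (SE 0.12, adjusted p = 7e-06), SLC13A4 of -0.82 (SE 0.13, adjusted p = 0.00054) and SLC13A3 of -0.81 (SE 0.19, adjusted p = 0.0099). These 3 rose with rcSF3 in E7 cultures and differed by less in E14 cultures. The difference for SLC8A3 was 1.73 (SE 0.46, adjusted p = 0.025), lost without E14 SF3 repeat 1, E14 rcSF3 repeat 1 or E7 SF3 repeat 1 (log2 value 1.58 to 1.62, adjusted p of 0.064 to 0.066). For SLC12A7 it was 1.08 (SE 0.29, adjusted p = 0.027), lost without E14 SF3 repeat 3, E14 rcSF3 repeat 2, E7 SF3 repeats 2 or 3 or E7 rcSF3 repeat 2 (log2 value 0.90 to 1.07, adjusted p of 0.059 to 0.088). For SLC39A11 it was -0.42 (SE 0.12, adjusted p = 0.032), lost without E14 SF3 repeats 1 or 3, E14 rcSF3 repeats 1, 2 or 3, E7 SF3 repeats 2 or 3 or E7 rcSF3 repeats 1, 2 or 3 (log2 value -0.43 to -0.39, adjusted p of 0.05 to 0.082). The positive differences of SLC8A3 and SLC12A7 followed decreases with rcSF3 in E7 cultures. In E14 cultures neither gene was called for rcSF3, with 0.749 (adjusted p = 0.26) for SLC8A3 and -0.0459 (adjusted p = 0.93) for SLC12A7. Among the partners, the response of CAB39L differed between ages by 1.87 (adjusted p = 0.00061), that of ANKH by 2.05 (adjusted p = 0.00019) and that of MT3 had a difference of -1.26 (adjusted p = 0.0016).

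For serum, 4 of 50 genes had a lower response in E14 cultures and none a higher one, where 2.05% of all probe sets were called lower and 1.65% higher. The differences were -0.93 (SE 0.12, adjusted p = 0.00018) for SLC4A7, -0.70 (SE 0.13, adjusted p = 0.0047) for SLC13A4 and -0.82 (SE 0.19, adjusted p = 0.016) for SLC13A3, the last lost without E7 SF3 repeat 2 (log2 value -0.71, adjusted p = 0.053). For SLC4A2 it was -0.62 (SE 0.16, adjusted p = 0.036), lost without E14 SF3 repeat 3, E14 SF3 with serum repeats 1, 3 or 2, E7 SF3 repeats 2 or 3 or E7 SF3 with serum repeats 2 or 3 (log2 value -0.66 to -0.46, adjusted p of 0.052 to 0.11). The tests for serum and for rcSF3 share the SF3 arrays of both ages, so genes called in both are not independent results. SLC4A7 was the gene whose response to serum was called in opposite directions at the 2 ages. CA14 and MT3 also had lower responses to serum in E14 cultures, with differences of -2.05 (adjusted p = 0.00038) for CA14 and -1.60 (adjusted p = 0.00037) for MT3.

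Whether serum altered the response to rcSF3 was tested as the response with serum minus the response without it. In E7 cultures 1 of 48 transporter genes was called, SLC13A4, with a smaller response in the presence of serum (log2 difference -0.68, SE 0.12, adjusted p = 0.0093), where 0.916% of all probe sets were called higher and 1.32% lower. In E14 cultures limma called none of 48, with 6 at an unadjusted p under 0.05, where 0.229% of all probe sets were called higher and 0.404% lower. With the repeat number as a block 3 were called, where 2.65% of all probe sets were.

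**Figure D5:**
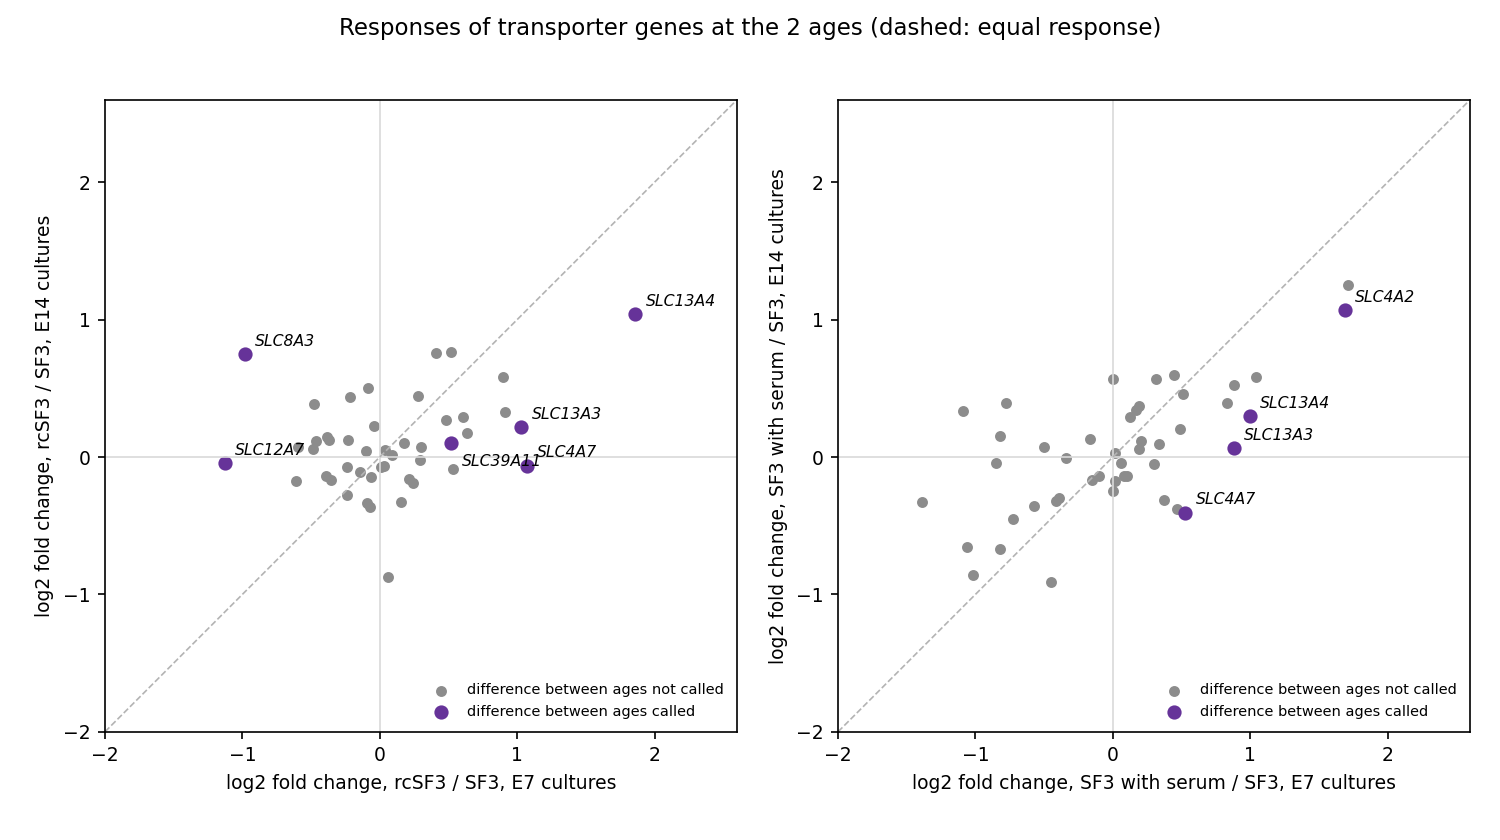
Log2 fold change in E14 cultures (vertical axis) against that in E7 cultures (horizontal axis) for 46 transporter genes tested at both ages, for rcSF3 against SF3 (left) and SF3 with serum against SF3 (right). Purple points are genes whose responses differed between ages at an adjusted p under 0.05, and the dashed line marks equal responses. SLC4A7 lies at 1.07 in E7 and near 0 in E14 cultures for rcSF3.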

How the data were processed

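Total RNA was labeled by 3' amplification and hybridized to 1-color Affymetrix arrays of the chicken genome. The authors computed the intensity of each probe set with GeneChip Operating Software, scaled every array to 1 global target, and deposited the intensities on the linear scale. The scaling was checked, and after trimming 2% of signals at each end the array means were 500.12 to 500.13. The version of the software and its background correction are not stated here. The deposited intensities were used without normalization after conversion to log2. Of 38535 rows, 96 controls were left out. Of the others, 27168 carry 1 symbol, 177 several and 11094 none, and all 77 transporter symbols were found in a RefSeq table. One culture code in the labels omits SF3 and was read as rcSF3 with serum, the one medium without another code.

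Probe sets with a mean log2 signal equivalent to at least 100 at an age were tested (18663 at E7, 18815 at E14, 19519 at either). Group means were compared with limma 3.58.1 in R 4.3.3 with a variance trend, adjusted by Benjamini-Hochberg over all probe sets tested, at a threshold of 0.05, for media within each age over 12 arrays and for ages over 24. On simulated data for E7 rcSF3 against SF3, 71% of 100 probe sets changed by 1 on the log2 scale were recovered and 94% of 100 changed by 2. No other probe set was changed there, and the noise was drawn independently for each array. These shares therefore check the procedure and do not measure its sensitivity in the data, where far more probe sets were called. Plots were made in Python 3.11.15 (matplotlib 3.10.9, pandas 2.3.3).

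Repeats carry the numbers 1 to 3 in the labels, with no statement that a number marks a shared day. Deviations of same-numbered arrays from their group means correlated at 0.110 to 0.154 between rcSF3 and SF3 of E7, at 0.136 to 0.208 for E14, and at 0.114 to 0.230 for E14 with serum, so these were regarded as pairs. The main test still had no pairing, and its calls and adjusted p values are the ones given unless a block is named. In E7 cultures with serum the correlations were 0.0339 to 0.118, and across serum states none of same-numbered arrays was over 0.1, so these were not regarded as pairs. Arrays that differed in both number and serum state reached 0.118 at E7 and 0.135 at E14, so the lowest values of the pairs lie within that range.

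The transporter set and the lists of partner and marker genes were chosen with earlier results of these data known. Genes given in full were, for each comparison, up to 8 of the largest increases and 8 of the largest decreases among called members whose arrays did not overlap, up to 6 members of lowest p in each test of a difference between responses, and the member of highest mean signal in each subfamily. From partner lists the 2 members of lowest p and a few others were named. Alternatives were quantile normalization, other filters, a floor at 100, a fit over all arrays, the same contrasts without moderated variances, the repeat number as a block, the median over probe sets of a gene, and each array left out. Detection calls were not used here.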

Additional observations from a re-analysis of the deposited data

Results flagged for a closer look

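Responses of several transporters differed between ages in a direct test of the difference, given as the E14 response minus the E7 response on the log2 scale with the adjusted p of limma. For rcSF3 the differences were -1.14 (adjusted p = 7e-06) for SLC4A7, -0.816 (adjusted p = 0.00054) for SLC13A4, -0.814 (adjusted p = 0.0099) for SLC13A3, and -0.421 (adjusted p = 0.032) for SLC39A11. They were 1.73 (adjusted p = 0.025) for SLC8A3 and 1.08 (adjusted p = 0.027) for SLC12A7, genes that fell with rcSF3 in E7 cultures and were not called in E14 cultures. With all signals under 100 raised to 100 the value of SLC8A3 was 1.45 (adjusted p = 0.0024).

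For serum the differences between ages were -0.930 (adjusted p = 0.00018) for SLC4A7, -0.697 (adjusted p = 0.0047) for SLC13A4, -0.817 (adjusted p = 0.016) for SLC13A3, and -0.618 (adjusted p = 0.036) for SLC4A2. These tests share the SF3 arrays of both ages with those for rcSF3, so the genes called in both are not independent results. The log2 fold change of SLC4A7 with serum was -0.40 in E14 and 0.53 in E7 cultures, and both were called.

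The response of SLC13A4 to rcSF3 in E7 cultures was smaller with serum than without it, by a test of the interaction (-0.684, adjusted p = 0.0093). With serum in both media its log2 fold change was 1.17, and without serum 1.86. Groups of 3 arrays were too small for a test of single outlying arrays.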

How the results depend on the processing

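Counts of called transporters were recomputed for the 12 comparisons, which gave 296 alternative counts, and 263 of them lay within 1.5 times the reported count. With the median of all probe sets of a gene in place of the brightest, fewer genes were tested and called, namely 10 against 19 for rcSF3 and 13 against 24 for serum in E7 cultures, 14 against 22 for age in SF3, 6 against 13 for age in rcSF3, 2 against 6 and 2 against 4 for the age differences in the responses to rcSF3 and serum, 0 against 2 for rcSF3 with serum in E14 cultures, and 0 against 1 for the interaction in E7 cultures. With that median SLC4A2 changed sign, with -0.0749 (adjusted p = 0.79) for serum in E7, -0.361 (adjusted p = 0.36) for serum in E14, and 0.25 (adjusted p = 0.65) for rcSF3 with serum in E14 cultures.

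With the replicate block within each serum state, the counts were 9 against 3 for rcSF3 and 5 against 2 for rcSF3 with serum in E14 cultures, 13 against 6 and 9 against 4 for the age differences in the responses to rcSF3 and serum, and 2 against 1 and 3 against 0 for the interactions in E7 and E14 cultures. The block changed no other count by over 1.5 times and ended none of the 99 calls of single genes that were followed through the settings. Comparisons of serum with SF3 and of E14 with E7 contrast arrays of different blocks. There the block takes out spread between repeats that belongs to the error. It is therefore no check on those calls, nor on the 9 against 4 for the response to serum. In 1 fit of all 24 arrays, 6 were called for rcSF3 in E14 cultures and 1 for its interaction with serum. With the same contrasts but without moderated variances 8 against 16 were called for serum in E14 cultures, 0 for rcSF3 with serum in E14 cultures and 0 for the interaction in E7 cultures. With no filter on signal 3 against 6 were called for the age difference in the response to rcSF3. The causes of these changes were not tested.

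With 1 array left out, 15 to 20 genes were called for rcSF3, 21 to 25 for serum and 10 to 14 for rcSF3 with serum in E7 cultures. In E14 cultures rcSF3 gave 1 to 4, with 1 without rcSF3 repeat 1 or SF3 repeat 1. Serum gave 10 to 18, with 10 without SF3 with serum repeat 1 or 3. For rcSF3 with serum it was 0 to 2, with 0 without rcSF3 with serum repeat 2 or 3 or SF3 with serum repeat 1. Age in SF3 gave 20 to 22 and in rcSF3 11 to 13. The age differences gave 4 to 10 for rcSF3, with 10 without E14 SF3 repeat 2, and 3 to 5 for serum. The interaction gave 1 to 2 in E7 cultures, with 2 without rcSF3 or SF3 repeat 2, and 0 to 1 in E14 cultures, with 1 without SF3 with serum repeat 1 or SF3 repeat 3. Of 99 calls of single genes followed through the settings, 58 passed in all settings run. In at least 1 setting 39 missed the threshold, 27 of these with an array left out, and 3 changed sign. SLC4A2 for rcSF3 with serum in E14 cultures is counted in both of these groups. The 99 were picked by overlap, size and lowest p as described above. Other printed calls and those of partner genes were not followed in this way, so the lack of a remark does not mark them as stable. Array medians near 100 limit what dim genes such as SLC34A1, SLC8A3, SLC12A3 and SLC39A6 can show.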
